A study of Homo sapiens with 30 samples.

Results

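Nascent transcription was compared between A549 cells kept for 4 days in GSK591 and untreated A549 cells, over all genes of the deposited count table. The comparison rests on 4 of the 30 libraries of the series, 2 per group, and on 22919 of 58780 annotated genes that passed a filter on low counts. A549 is an established human lung adenocarcinoma line. GSK591, which blocks the enzyme PRMT5, was given at 1 µM for 4 days in 0.01% DMSO. The untreated libraries are labelled as untreated for 15 min in 0.01% DMSO. No group held for 4 days in vehicle alone is among the samples, so time in culture and the inhibitor cannot be told apart in this comparison. The further groups of 2 libraries set beside it are GSK591 at 1 µM for 2 days, GSK591 at 1 µM for 7 days, and MS023 at 1 µM for 4 days, each in 0.01% DMSO.

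PRMT5 places symmetric dimethylation on arginines, and works in a complex with the adaptor WDR77. Its best known substrates include the Sm proteins, which form the core ring of the spliceosomal snRNPs, and the tails of histones H2A, H3 and H4. MS023 inhibits the Type I enzymes, PRMT1 among them, which place asymmetric dimethylation on arginines. In other cell types, loss of PRMT5 activity is known for altered splicing of MDM4, a restraint on p53, and for slower growth. Precision run-on sequencing (PRO-seq) labels RNA at the active site of engaged polymerases, so that counts report where transcription was under way when the cells were permeabilised, and not the amount of stored mRNA. The study set out to measure nascent transcription after inhibition of either class of enzyme.

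Each of the 4 libraries held 10031609 to 13069598 counts. Mitochondrial genes took 76.0% and 73.4% of counts in the untreated libraries and 69.5% and 70.3% in the GSK591 libraries. Levels are given as CPM, counts scaled to a common library total, after the TMM method, which compares libraries over most of their genes. With totals as the only scaling, the median of all genes tested moved from 0.00 to 0.42 on the log2 scale, and changes below are relative to the TMM centre. Differences are log2 fold changes ± their standard error, and single signed values in brackets are log2 fold changes. Log2 CPM correlated across 11117 genes with r = 0.978 between the untreated replicates and r = 0.979 between the GSK591 replicates. All 10 markers listed for A549 had counts, with sums of 11215 and 10892 in untreated and 11146 and 12088 in GSK591 libraries. They were KRT7, KRT8, KRT18, EPCAM, AKR1B10, AKR1C1, AKR1C2, ALDH1A1, FGB and FGG, so the sums are not of epithelial genes alone. KRT7 had 2690 and 2700 counts in untreated and 1520 and 1695 in GSK591 libraries. EPCAM had 15 and 24 counts in untreated and 34 and 38 in GSK591 libraries. Of the genes at the CDKN2A locus listed as deleted in A549, CDKN2A had 0 to 2 counts per library and CDKN2B 0, while MTAP had 113 and 147 counts in untreated and 159 and 125 counts in GSK591 libraries, against that listing. Of 7 fibroblast markers the sums were 40 to 59 counts, and of 5 endothelial markers 9 to 16 counts, with no separation of the groups. Sums over 6 immune markers were 23 and 36 counts in untreated and 51 and 69 counts in GSK591 libraries. CD14 gave most of these, CD3E had 0 counts in all 4 libraries, and PTPRC had 0 to 2. Their part in the results was not tested. Whether reads were told apart by strand is not settled by the counts, so genes whose exons overlap those of another gene may share reads. Of the genes named below, those with such exons include AL031282.1, ALDH3A1, CDH1, CDKN1A, CENPA, CKAP2L, CPM, DIO2, DNMT1, EMC3-AS1, GAS5, GEMIN4, GREM1, H2AZ1, HEXA, HEXIM1, HNRNPA2B1, KIAA1614, KRT18, KRT7, LOC100507156, MARCHF4, MCM2, MDM2, MIR22HG, MNT, MUC5B, MX1, MXD4, NPC1, NPHS1, OSGIN1, PRMT1, PRMT5, PRR36, RAB37, RECQL4, RPL9, RRM2, SNHG1, SNRPA, SNRPB, SNRPD3, SNRPF, SRRM2, SRSF2, TAF15, TGFB1, TTC4, WDR77 and WDR86.

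After 4 days of GSK591, 3941 genes (17.2% of those tested) passed the edgeR quasi-likelihood test at a Benjamini-Hochberg adjusted p under 0.05. Of these, 2043 were higher (8.91%) and 1898 lower (8.28%). These shares of all genes tested are the background for the calls of this comparison in each list below. Shares were larger among well transcribed coding genes. Of protein-coding genes 10.7% rose and 10.1% fell, and in the eighth of them with the highest mean CPM 12.1% rose and 24.7% fell. A share above 17.2% alone thus does not set a list of such genes apart from others of like level. The median log2 fold change was 0.85 among the genes that rose and -0.77 among those that fell, and 791 rose and 624 fell by more than 2-fold. Genes of the cell cycle, histones, ribosomal proteins and hnRNP proteins were among the falls, and fibrinogen FGA, mucin MUC5B and targets of p53 were among the rises. Without single libraries the count of calls was 2234 (GSK591 replicate 1 left out), 2335 (GSK591 replicate 2), 2140 (untreated replicate 1) and 2375 (untreated replicate 2), and DESeq2 called 2483 genes. The labels do not say whether replicates came from separate cultures. The p-values thus measure only the spread between replicates, pooled over all 15 groups of the series, and that spread may be technical.

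**Figure D1:**
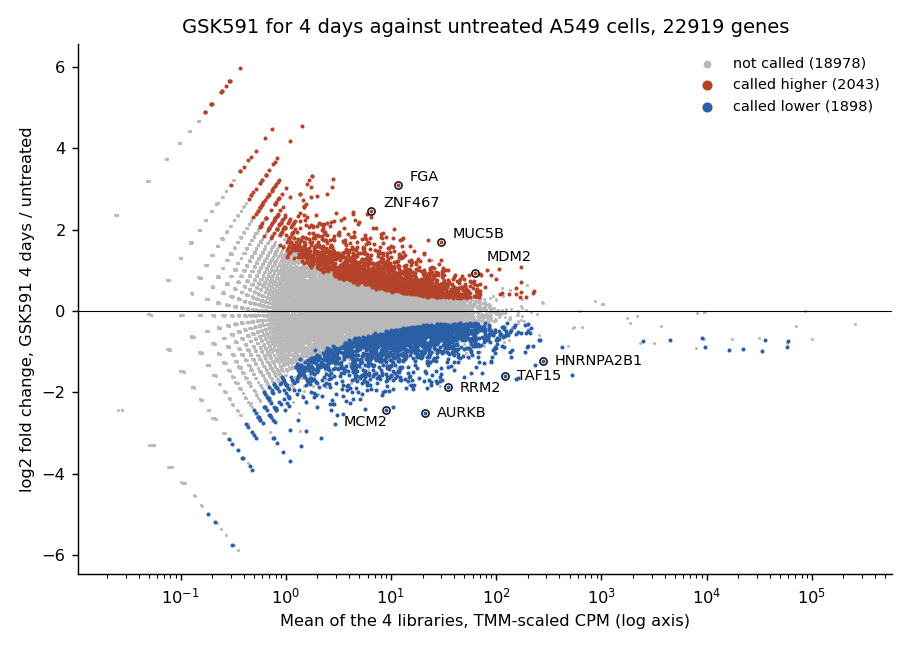
Each point is 1 of 22919 genes, with the mean of the 4 libraries in TMM-scaled CPM on a log axis and the log2 fold change of GSK591 at 4 days over untreated on the vertical axis. Red points are the 2043 genes called higher and blue points the 1898 called lower, and 9 of the genes named in the text are labelled, with FGA at 3.09 and AURKB at -2.50.

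Transcription of the enzyme that GSK591 inhibits did not pass the test. PRMT5 was at 7.90 and 8.77 CPM in the untreated and 6.63 and 5.72 CPM in the GSK591 libraries. Both GSK591 libraries lay below both untreated ones, with a log2 fold change of -0.43 ± 0.20 (SE), a 95% interval of -0.83 to -0.03 and an adjusted p of 0.134. The inhibitor acts on the protein, and these counts do not measure its activity. WDR77, the adaptor of the PRMT5 complex, was at 2.45 and 1.81 CPM in untreated and 0.864 and 1.60 CPM in treated cells (-0.78 ± 0.39, adjusted p = 0.174). CLNS1A, which encodes pICln and hands Sm proteins to PRMT5, was at 8.12 and 8.26 CPM before and 8.45 and 6.92 CPM after, and these values overlapped.

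PRMT1, the main Type I enzyme, was the 1 gene of 11 tested in the list of methyltransferases and their partners that fell, and none rose, a share below the 17.2% of all genes tested that passed. It was at 56.2 and 55.8 CPM in untreated and 35.2 and 35.4 CPM in GSK591 libraries. The groups stood apart by more than their replicates differed, with a log2 fold change of -0.66 ± 0.11 and an adjusted p of 1.07e-05. That call was lost with totals as the only scaling. The remaining 10 genes ranged from -0.78 for WDR77 to 0.38 for PRMT9. The list's median of -0.09 compares with 0.00 over all genes tested, and turned to 0.33 with totals as the only scaling, a change of the same size as that of all genes.

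Of the genes for Sm proteins and other snRNP core factors, most did not pass. Of 27 tested, 7 fell and 1 rose (29.6% called, beside 17.2% of all genes tested). The median of -0.18 turned to 0.24 with totals as the only scaling. Among the genes for the Sm proteins themselves, SNRPD1, SNRPD3, SNRPF and SNRPG fell. SNRPB, SNRPE (-0.40), SNRPD2 (-0.36) and SNRPN (-0.18) did not pass. In all of these Sm genes except SNRPN, both GSK591 libraries lay below both untreated ones. SNRPB, the gene for SmB and SmB′, was at 17.8 and 19.4 CPM in untreated and 15.7 and 15.6 CPM in GSK591 libraries. Both treated values were below both untreated values, but the difference did not pass (-0.25 ± 0.15, 95% interval -0.55 to 0.05, adjusted p = 0.279). SNRPF fell the most, from 5.12 and 3.02 CPM to 1.44 and 1.10 CPM (-1.66 ± 0.36, adjusted p = 0.000710), a call lost without untreated replicate 1. SNRPD1 and SNRPD3, whose proteins are methylated by PRMT5 along with SmB, fell by 1.24 and 0.88 on the log2 scale. Both of these calls were lost without GSK591 replicate 1 and with totals as the only scaling. LSM10, a ring subunit of the U7 snRNP that processes histone mRNA, was the gene that rose, from 3.34 and 5.64 CPM to 9.80 and 8.02 CPM (0.98 ± 0.22, adjusted p = 0.00111), with its call lost without untreated replicate 1. SNRPA (-0.64), LSM8 (-0.64), GEMIN4 (-0.42) and SNRPG (-0.41) fell as well, each with its call lost with totals as the only scaling. That of SNRPG was also lost without each single library in turn, with no filter and with DESeq2, and that of GEMIN4 without GSK591 replicate 2, untreated replicate 1 or untreated replicate 2. The count of falls was 4 without GSK591 replicate 1 and 4 without untreated replicate 1.

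The hnRNP genes, which encode proteins that package nascent RNA and steer splicing, mostly fell. Of 28 hnRNP and related RNA-binding protein genes, 20 fell and none rose, with a median of -0.63, beside 8.28% of all genes tested that fell. TAF15, a relative of EWSR1, was at 197 and 166 CPM in untreated and 61.0 and 58.4 CPM in GSK591 libraries. HNRNPA1, which encodes an abundant hnRNP that binds splice sites and travels with mRNA, was at 94.2 and 92.0 CPM and 41.7 and 43.2 CPM. In both genes the treated libraries were below the untreated libraries by more than the replicates differed. The log2 fold changes were -1.60 ± 0.26 for TAF15 (adjusted p = 0.000396) and -1.13 ± 0.10 for HNRNPA1 (adjusted p = 1.93e-12). HNRNPA2B1 was at 440.1 and 344 CPM and 156 and 179 CPM (-1.23 ± 0.28), and lost its call without GSK591 replicate 1, without untreated replicate 1 and with totals as the only scaling. The count of falls in the list was 10 without GSK591 replicate 1 and 13 without untreated replicate 1. It was 2 with totals as the only scaling, with a median of -0.21.

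Of 23 SR protein and SR kinase genes, 6 fell and none rose (26.1% called, beside 17.2% of all genes tested). The median was -0.15 (0.27 with totals as the only scaling). SRSF2, an SR protein that binds exonic enhancers, was at 14.6 and 12.2 CPM in untreated and 5.47 and 4.61 CPM in GSK591 libraries (-1.40 ± 0.20, adjusted p = 4.86e-07). Its treated libraries were clear of the untreated ones. SRSF7 was at 138 and 123 CPM and 71.2 and 67.3 CPM (-0.91 ± 0.11), TRA2B fell by 0.81 and SRSF3 by 0.60 on the log2 scale, all calls that were lost with totals as the only scaling. SRRM2, a large scaffold of nuclear speckles, was at 118 and 105 CPM and 79.2 and 85.0 CPM and did not pass (adjusted p = 0.0739).

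The 15 largest falls among protein-coding genes averaging 5 CPM or more were AURKB, MCM2, CEP128, CLSPN, CEP55, CKAP2L, E2F1, CENPM, KIF14, NCAPG2, PCLAF, ZNF367, KIF18B, CDCA5 and RRM2. The call of KIF14 was lost without GSK591 replicate 2, without untreated replicate 2 and with totals as the only scaling. AURKB, the kinase of the chromosomal passenger complex (GENCODE 29 gene, hg38 chr17:8204733-8210600, minus strand), was at 34.0 and 37.8 CPM in untreated and 5.76 and 6.92 CPM in GSK591 libraries. The lower untreated value was well above the higher treated value, and the log2 fold change was -2.50 ± 0.15 (adjusted p = 8.65e-18). MCM2, a subunit of the replicative helicase (chr3:127598223-127622436, plus strand), was at 15.0 and 15.1 CPM and 2.21 and 3.41 CPM. The groups were again wide apart (-2.42 ± 0.23, adjusted p = 2.38e-11). RRM2, the small subunit of ribonucleotide reductase (chr2:10120698-10131419, plus strand), was at 52.7 and 56.6 CPM and 15.7 and 13.9 CPM (-1.88 ± 0.12, adjusted p = 1.63e-16). In bulk libraries, fewer cells of a type or phase and less RNA made per cell cannot be told apart.

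E2F1, a transcription factor that activates genes of S phase and is itself a target of E2F (chr20:33675683-33686404, minus strand), was at 13.2 and 17.4 CPM in untreated and 4.51 and 3.31 CPM in GSK591 libraries. The 2 groups did not overlap, and the log2 fold change was -1.97 ± 0.21 (adjusted p = 6.19e-10). ZNF367, a zinc finger gene also known as an E2F target, was at 26.5 and 24.2 CPM and 5.19 and 8.32 CPM (-1.91 ± 0.17). CDC25A, the phosphatase that activates CDK2, was at 11.2 and 13.6 CPM and 4.42 and 3.91 CPM (-1.58 ± 0.21). Of 27 genes that control the passage from G1 to S, 10 fell and 2 rose, with a median of -0.37 (0.05 with totals as the only scaling). E2F2 (-1.78), E2F7 (-1.61), E2F8 (-1.54), E2F3 (-1.09), CDK2 (-1.41) and CCNE1 (-1.11) fell as well. The genes that rose were CDKN1A and CDKN1C, which encode inhibitors of cyclin-dependent kinases. CDKN1C was at 3.11 and 0.907 CPM and 6.91 and 5.52 CPM (1.66 ± 0.38), with its call lost without GSK591 replicate 1 or untreated replicate 2. RB1 (0.14), E2F4 (-0.08) and CDK4 (0.25) did not pass.

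In the list for DNA replication, 36 of 56 genes fell and none rose, with a median of -0.95. The median was -0.52 and 17 genes fell and 2 rose with totals as the only scaling, and without single libraries 29 to 31 fell. The subunits MCM2, MCM3, MCM4, MCM5, MCM6 and MCM7 of the helicase each fell, from -2.42 for MCM2 to -0.84 for MCM7. Falls also covered the initiation factors MCM10 (-2.16), CDC45 (-1.83), ORC1 (-1.59) and CDC6 (-0.75), the checkpoint mediator CLSPN (-2.37), the ubiquitin ligase adaptor DTL (-2.10) and the polymerase subunit POLE (-1.81). PCNA, the sliding clamp, fell by 0.84 on the log2 scale. CDT1, the licensing factor, was at 44.3 and 47.8 CPM and 38.7 and 42.5 CPM and did not pass (-0.18 ± 0.12, adjusted p = 0.317), nor did ORC2 (-0.01) or ORC3 (0.12).

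In the list for mitosis and G2/M, 44 of 67 genes fell and 1 rose. The median of -1.32 was the lowest of the lists with over 20 genes tested, and it was -0.91 with totals as the only scaling, where 26 fell. KIF18B, a kinesin that shortens astral microtubules, was at 34.0 and 35.0 CPM in untreated and 9.51 and 9.03 CPM in GSK591 libraries (-1.89 ± 0.13, adjusted p = 2.65e-15). CDCA5, or sororin, which protects sister chromatid cohesion, was at 23.4 and 20.9 CPM and 6.34 and 5.52 CPM (-1.89 ± 0.17, adjusted p = 5.94e-12). Neither gene had overlapping values between the groups. The condensin subunit NCAPH (-2.57), the kinetochore scaffold KNL1 (-2.25), MYBL2 (-1.98), CDK1 (-1.89), MKI67 (-1.62), TOP2A (-1.55), FOXM1 (-1.13) and CCNB1 (-1.43) were other falls.

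CENPA, the histone variant of centromeres, was the mitotic gene that rose, from 22.7 and 23.3 CPM to 32.6 and 40.3 CPM (0.66 ± 0.14, adjusted p = 0.000525). The authors' deposited table gives CENPA a log2 fold change of -0.49 (adjusted p = 0.0202), in the other direction, with gene levels that differ from those of the count table. CDC25B, the highest of those that did not pass, was at 57.9 and 59.5 CPM and 48.6 and 48.4 CPM (adjusted p = 0.0651).

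**Figure D2:**
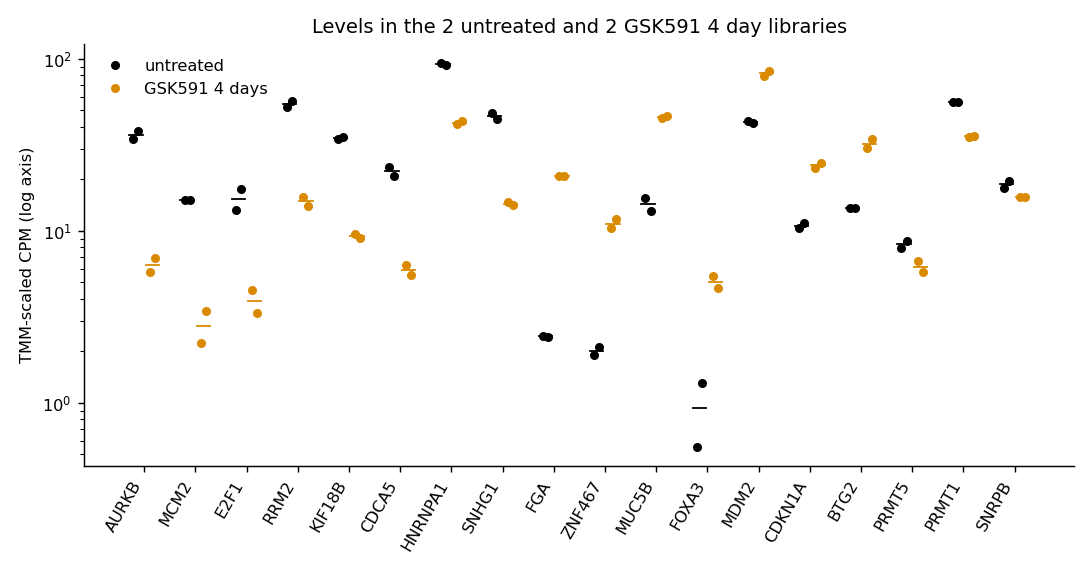
Points are the TMM-scaled CPM of single libraries on a log axis for 18 genes, black for the 2 untreated and orange for the 2 GSK591 4 day libraries, and bars are group means. AURKB to SNHG1 lie lower after GSK591 and FGA to BTG2 higher, while PRMT5 and SNRPB lie lower without passing the test.

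Replication-dependent histone genes, which are transcribed mostly in S phase, mostly fell. Of 48 tested, 41 fell, none rose, and all 48 log2 fold changes were negative, with a median of -0.93 (-0.52 and 21 falls with totals as the only scaling). H1-5, a linker histone, was at 37.9 and 44.9 CPM in untreated and 9.89 and 15.1 CPM in GSK591 libraries (-1.73 ± 0.19, adjusted p = 5.30e-07). H2BC14 was at 8.23 and 8.77 CPM and 3.07 and 2.81 CPM (-1.53 ± 0.23, adjusted p = 1.67e-06). H1-3 was at 77.6 and 93.9 CPM and 26.3 and 33.5 CPM (-1.52 ± 0.17). In each of these the lower untreated library was above the higher treated one. H4C3, the highest of the 7 that did not pass, was at 36.4 and 36.3 CPM and 27.6 and 29.5 CPM. Histone genes are near-identical copies, so reads may be split between them. H2AZ1, a variant made outside this cluster, was at 11.2 and 9.57 CPM and 3.07 and 4.01 CPM (-1.55 ± 0.20).

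Genes of homologous recombination and the Fanconi pathway gave 19 falls and no rise among 46 tested, with a median of -0.58 (-0.16 with totals as the only scaling). The helicase BLM was at 6.67 and 5.34 CPM and 1.92 and 1.40 CPM (-1.84 ± 0.35). Other falls were BRCA1 (-1.70), BRCA2 (-1.17), FANCD2 (-1.51) and XRCC2 (-1.75), while RECQL4 at 56.2 and 51.5 CPM and 52.6 and 51.3 CPM did not pass. KAT5, the acetyltransferase TIP60, did not pass either (-0.14). The count of falls was 12 without GSK591 replicate 2 and 12 without untreated replicate 2. Among 37 centrosomal CEP genes, 10 fell and 2 rose (32.4% called, beside 17.2% of all genes tested). The median of -0.27 turned to 0.16 with totals as the only scaling. CEP128 was at 10.3 and 8.66 CPM and 1.54 and 2.01 CPM (-2.42 ± 0.52), a call lost without GSK591 replicate 1. CEP55, an abscission factor, was at 13.3 and 13.1 CPM and 3.55 and 2.71 CPM (-2.07 ± 0.48), a call lost without GSK591 replicate 2. With GSK591 replicate 1, GSK591 replicate 2, untreated replicate 1 and untreated replicate 2 left out in turn, falls numbered 7, 5, 6 and 8 and rises 1, 0, 0 and 1, and DESeq2 gave 5 falls and 0 rises. Of 24 genes for chromatin enzymes and readers, 5 fell and 2 rose (29.2% called, beside 17.2% of all genes tested). The maintenance methyltransferase DNMT1 was at 31.9 and 30.9 CPM and 14.3 and 11.3 CPM (-1.29 ± 0.24), lamin LMNB1 fell by 1.21 on the log2 scale, and the de novo enzyme DNMT3A rose from 21.1 and 23.3 CPM to 32.2 and 33.6 CPM (0.56 ± 0.12). Falls in that list numbered 3, 2, 3 and 3 with the same libraries left out in turn.

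**Figure D3:**
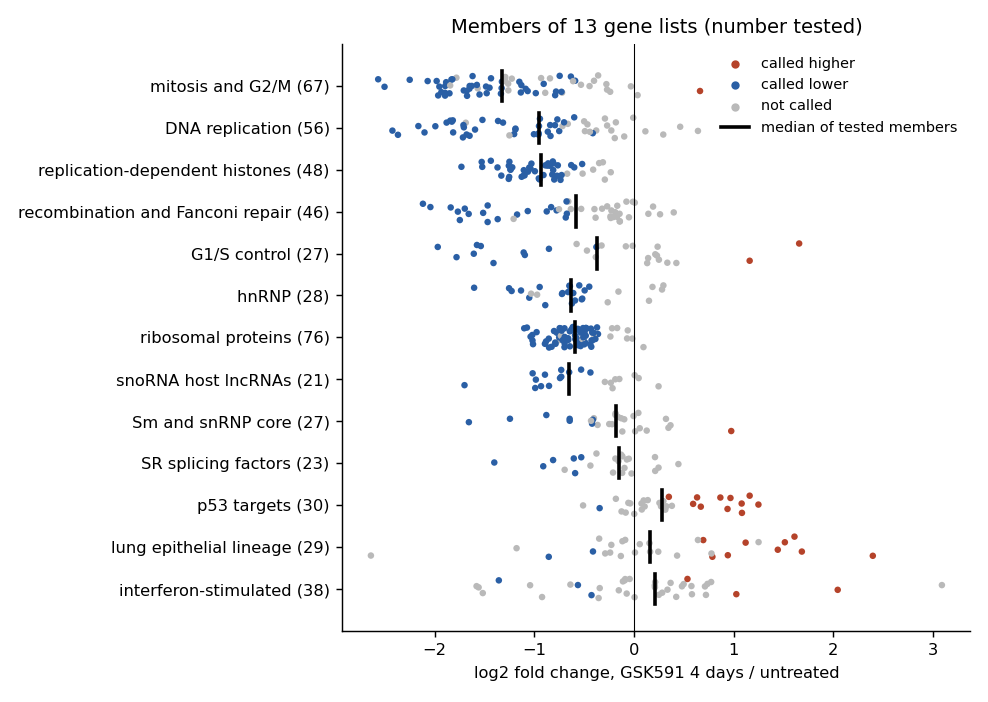
Each point is 1 tested gene of 13 lists, placed by the log2 fold change of GSK591 at 4 days over untreated, coloured by the test at an adjusted p of 0.05, with a bar at the median of each list. The cell-cycle, histone, hnRNP and ribosomal protein lists lie mostly left of 0 and hold few or no rises, and the p53 list holds 11 rises and 1 fall.

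Promoter letters of genes from these groups are shown because E2F and MuvB complexes are known to act through short words near the start of such genes. The words searched on both strands were TTTCCCGC and TTTGGCGC for E2F and TTTGAA for the cell cycle homology region (CHR), in the 250 bases before the first listed RefSeq start of each gene (build GRCh38.p14). An E2F word was present in 14 of 48 replication genes with a promoter in the table (29.2%) and in 10 of 30 that fell (33.3%), against 2.86% of 11888 protein-coding genes tested. Among G1/S genes 5 of 21 held one, and 5 of 7 that fell. Among mitotic genes an E2F word was present in 4 of 57 (7.02%) and in 2 of 35 that fell (5.71%). The mitotic genes CDCA5 and KIF15, printed below with such a word, are thus not typical of that list. An E2F word was present in 1 of 40 genes of homologous recombination and the Fanconi pathway (2.50%) and in none of the 16 that fell. It was present in 2 of 61 ribosomal protein genes (3.28%) and in 3 of 23 p53 targets (13.0%). The CHR word was present in 27 of 57 mitotic genes (47.4%) and in 18 of 35 that fell (51.4%), against 8.60% of protein-coding genes tested. It was present in 2 of 48 replication genes (4.17%) and in 5 of 40 recombination and Fanconi genes (12.5%). A match describes letters and not binding, and a gene without one may hold other forms of the word. The 8 promoters shown were chosen because they hold a word. The 150 bases that end just before the start are E2F1 chr20:33686386-33686535 (minus strand), ZNF367 chr9:96418371-96418520 (minus strand), CDC25A chr3:48188418-48188567 (minus strand), DTL chr1:212035598-212035747 (plus strand), CDCA5 chr11:65084041-65084190 (minus strand), KIF15 chr3:44761644-44761793 (plus strand), CKAP2L chr2:112764610-112764759 (minus strand) and CENPA chr2:26785906-26786055 (plus strand), each read 5′ to 3′ on the strand of its gene. Capitals mark the words. They begin 20 bases before the start in E2F1, 21 in ZNF367, 44 in CDC25A, 8 in DTL and 45 in CDCA5. KIF15 carries an E2F word at 43 bases and, directly after it, a CHR word at 35 bases, both in reverse complement. CKAP2L has a CHR word at 86 bases in reverse complement and at 17 bases, and CENPA has a CHR word at 18 bases, so the mitotic gene that rose carries the word too.
E2F1: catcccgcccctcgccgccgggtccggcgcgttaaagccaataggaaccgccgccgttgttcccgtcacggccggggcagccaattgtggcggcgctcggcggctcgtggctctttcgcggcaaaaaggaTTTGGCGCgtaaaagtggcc
ZNF367: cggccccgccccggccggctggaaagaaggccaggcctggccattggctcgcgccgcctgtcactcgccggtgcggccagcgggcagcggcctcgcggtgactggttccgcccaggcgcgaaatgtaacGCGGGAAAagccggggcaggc
CDC25A: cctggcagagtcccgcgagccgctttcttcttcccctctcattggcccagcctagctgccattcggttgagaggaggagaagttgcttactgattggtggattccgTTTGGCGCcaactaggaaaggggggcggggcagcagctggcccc
DTL: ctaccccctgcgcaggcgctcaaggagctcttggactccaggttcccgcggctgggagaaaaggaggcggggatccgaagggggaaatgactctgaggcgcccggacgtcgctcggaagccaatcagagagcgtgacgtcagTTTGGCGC
CDCA5: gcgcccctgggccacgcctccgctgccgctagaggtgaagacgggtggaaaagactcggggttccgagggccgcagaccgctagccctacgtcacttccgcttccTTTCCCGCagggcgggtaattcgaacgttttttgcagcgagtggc
KIF15: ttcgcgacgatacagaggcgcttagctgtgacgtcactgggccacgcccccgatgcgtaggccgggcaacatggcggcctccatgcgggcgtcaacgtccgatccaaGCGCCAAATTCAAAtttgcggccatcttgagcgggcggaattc
CKAP2L: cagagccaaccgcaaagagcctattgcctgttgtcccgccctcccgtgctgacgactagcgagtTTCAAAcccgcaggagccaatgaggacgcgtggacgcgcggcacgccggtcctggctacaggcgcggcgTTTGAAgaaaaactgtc
CENPA: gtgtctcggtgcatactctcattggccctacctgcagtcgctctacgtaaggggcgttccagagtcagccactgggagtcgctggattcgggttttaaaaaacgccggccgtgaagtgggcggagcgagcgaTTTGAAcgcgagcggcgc

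Of the genes printed, DTL was at 6.34 and 5.14 CPM in untreated and 1.25 and 1.40 CPM in GSK591 libraries (-2.10 ± 0.34). CKAP2L, a spindle protein gene, was at 9.01 and 8.06 CPM and 1.34 and 2.81 CPM (-2.04 ± 0.29). KIF15, a kinesin of the spindle, was at 3.34 and 2.92 CPM and 0.960 and 0.501 CPM (-2.07 ± 0.49), and its call was lost without GSK591 replicate 2. In all of these genes except CENPA the treated libraries were the lower ones. The CCAAT word stood in 60.4% of replication and 66.7% of mitotic promoters, against 34.3% of protein-coding genes tested.

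Some targets of p53 rose. Of 30 tested, 11 rose and 1 fell, with a median of 0.28 and 8 to 10 rises without single libraries. MDM2, the ubiquitin ligase that restrains p53 and is induced by it (chr12:68808176-68850686, plus strand), was at 43.5 and 42.3 CPM in untreated and 79.7 and 84.8 CPM in GSK591 libraries. CDKN1A, which encodes the cell-cycle inhibitor p21 (chr6:36676460-36687339, plus strand), was at 10.3 and 11.1 CPM and 23.1 and 24.9 CPM. BTG2, an antiproliferative gene, was at 13.5 and 13.5 CPM and 30.2 and 34.0 CPM. In each of them both treated libraries were above both untreated ones, and the log2 fold changes were 0.94 ± 0.11 (adjusted p = 1.41e-08), 1.16 ± 0.15 (adjusted p = 1.08e-07) and 1.25 ± 0.17 (adjusted p = 6.59e-07). SESN2 (0.97), TP53INP1 (1.08), FDXR (0.87), PHLDA3 (0.67), CCNG1 (0.63) and BAX (0.59) rose as well. The apoptosis genes PMAIP1 (0.08) and BBC3 (-0.04) and ZMAT3 (0.08) did not pass. MDM4, whose splicing is known to respond to PRMT5, was at 17.5 and 14.0 CPM and 14.1 and 15.5 CPM, with overlapping groups (-0.08 ± 0.18, 95% interval -0.44 to 0.27); the counts give no measure of its splice forms. DDB2, a damage recognition factor, was the gene that fell, from 36.7 and 36.8 CPM to 28.7 and 29.2 CPM (-0.34 ± 0.12), and its call was lost without each single library in turn and its value turned to 0.07 with totals as the only scaling.

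Most ribosomal protein genes fell. Of 76 tested, 65 fell and none rose, with a median of -0.59 and a lowest value of -1.10 for RPS26. Without single libraries 49 to 58 fell. The median was -0.18 and 4 fell with totals as the only scaling, so most of these calls depend on the scaling. RPL9 was at 23.1 and 18.7 CPM in untreated and 10.4 and 10.2 CPM in GSK591 libraries (-1.02 ± 0.14, adjusted p = 5.07e-07), a call lost with totals as the only scaling. Its groups did not overlap. RPS19, the highest that did not pass, was at 180.4 and 192 CPM and 154 and 166 CPM (adjusted p = 0.106). Ribosomal protein genes have many processed copies, which can take some of their reads.

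Long non-coding RNAs that host snoRNAs, which like ribosomal protein genes often carry a terminal oligopyrimidine start, showed 13 falls and no rise among 21, with a median of -0.65. SNHG1 (chr11:62851988-62855914, minus strand) was at 48.6 and 44.5 CPM in untreated and 14.6 and 14.0 CPM in GSK591 libraries. GAS5 was at 92.0 and 89.5 CPM and 44.1 and 45.6 CPM. Both treated values of each gene were below both untreated values by more than replicates differed, with log2 fold changes of -1.70 ± 0.13 (adjusted p = 9.16e-14) and -1.02 ± 0.11 (adjusted p = 8.19e-10). The exons of SNHG1 overlap 7 other genes on the same strand. Of these hosts 2 fell with totals as the only scaling, with a median of -0.24.

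Of 44 ribosome biogenesis genes, 13 fell and none rose, with a median of -0.45 (-0.03 with totals as the only scaling). NCL, or nucleolin, was at 367 and 299.6 CPM in untreated and 122 and 142 CPM in GSK591 libraries (-1.33 ± 0.36, adjusted p = 0.0164), a call lost without GSK591 replicate 1, GSK591 replicate 2 and untreated replicate 1, and with totals as the only scaling. The count of falls was 6 without GSK591 replicate 1, 5 without GSK591 replicate 2 and 6 without untreated replicate 1. MYC was at 93.3 and 88.8 CPM and 59.3 and 69.6 CPM (-0.50 ± 0.12, adjusted p = 0.00132), with its call lost without GSK591 replicate 1 and with totals as the only scaling. MNT, a repressor that pairs with MAX, fell by 0.85 on the log2 scale, also a call lost with totals alone. MLXIPL, a glucose-responsive factor, rose (0.93), as did MXD4 (0.72), whose call was lost without GSK591 replicate 1 or untreated replicate 1. In the list of 12 genes around MYC there were 2 rises and 3 falls, with 1 fall left without GSK591 replicate 1 and 1 rise without untreated replicate 1.

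The largest rise among protein-coding genes averaging 5 CPM or more was FGA, which encodes the fibrinogen alpha chain (chr4:154583126-154590766, minus strand). FGA was at 2.45 and 2.42 CPM in untreated and 20.7 and 20.9 CPM in GSK591 libraries. The replicates were close together and the groups far apart, with a log2 fold change of 3.09 ± 0.20 and an adjusted p of 1.63e-16. Its neighbours in the fibrinogen cluster were low. FGB had 6 and 3 counts in untreated and 31 and 39 counts in GSK591 libraries (2.82 ± 0.51, adjusted p = 4.96e-05). FGG had 5 and 1 counts and 28 and 30 counts (3.11 ± 0.73, adjusted p = 0.00359), with its call lost without untreated replicate 2. Fibrinogen is chiefly a liver product, and A549 cells are known to transcribe it.

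ZNF467, a zinc finger gene (chr7:149764182-149773479, minus strand), was the next largest rise, from 1.89 and 2.12 CPM to 10.4 and 11.6 CPM (2.45 ± 0.25, adjusted p = 1.72e-10). FCGBP, a mucus protein that binds the Fc part of IgG, was at 1.89 and 2.42 CPM in untreated and 9.32 and 12.2 CPM in GSK591 libraries (2.31 ± 0.31, adjusted p = 2.67e-07). FGF18, a growth factor of the developing lung, was at 2.56 and 2.72 CPM and 10.2 and 11.4 CPM (2.03 ± 0.27, adjusted p = 5.12e-07). None of these had overlapping groups. The other rises taken by the same rule were FNDC11 (2.39), C5 (2.03), FBXW10 (2.02), EBF4 (1.90), SMIM10L2A (1.86), CCNP (1.82), TM4SF20 (1.82), RAB37 (1.80), WDR86 (1.80), PRR36 (1.79) and LGI4 (1.79). Complement C5 lost its call without each single library in turn. These 15 came from 1150 rises that met the level and overlap rule.

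In the list for lung epithelial lineage and secretion, 9 of 29 genes rose and 2 fell, with a median of 0.16. MUC5B, the main gel-forming mucin of small airways, was at 15.5 and 13.0 CPM in untreated and 44.9 and 46.4 CPM in GSK591 libraries (1.69 ± 0.19, adjusted p = 3.43e-07). FOXA3, a forkhead factor of gut and liver that also acts in mucous cells, was at 0.556 and 1.31 CPM and 5.47 and 4.61 CPM (2.40 ± 0.38, adjusted p = 4.09e-06). CDH1, or E-cadherin, was at 1.56 and 2.32 CPM and 5.28 and 5.92 CPM (1.51 ± 0.31, adjusted p = 0.000310). In all 3 genes the treated libraries were above the untreated libraries. FOXA2 (0.70), CLDN2 (1.44), OCLN (0.94), NAPSA (1.12) and MUC1 (0.79) rose too. MUC5AC, the other main airway mucin, was at 17.2 and 12.1 CPM and 31.5 and 38.1 CPM and did not pass (1.25 ± 0.46, adjusted p = 0.0770). The keratins KRT7 (-0.85) and KRT18 (-0.41) fell, both calls lost with totals as the only scaling and that of KRT18 also without GSK591 replicate 1 or untreated replicate 2.

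Lysosome and autophagy genes moved in both directions. TFEB, the master factor of lysosome and autophagy genes, was at 6.90 and 7.15 CPM in untreated and 15.5 and 20.4 CPM in GSK591 libraries (1.35 ± 0.17, adjusted p = 3.43e-08). Its relatives MITF (0.75) and TFE3 (0.49) rose as well, but MITF lost its call without each single library in turn and TFE3 without GSK591 replicate 1, GSK591 replicate 2 or untreated replicate 1. Of 27 tested, 7 fell and 4 rose (40.7% called, beside 17.2% of all genes tested), with a median of -0.08. The falls included the enzyme genes GLA (-0.90) and HEXA (-0.72) and the cholesterol transporter NPC1 (-0.57). These 3 falls were lost with totals as the only scaling, that of GLA also without GSK591 replicate 1 and that of HEXA without untreated replicate 1. With GSK591 replicate 1, GSK591 replicate 2, untreated replicate 1 and untreated replicate 2 left out in turn, falls numbered 2, 5, 4 and 5 and rises 2, 1, 2 and 2.

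Among 29 NRF2 targets, 6 rose and 3 fell (31.0% called, beside 17.2% of all genes tested). A549 carries a KEAP1 mutation and has high NRF2 activity as background. ALDH3A1, an aldehyde dehydrogenase, was at 104 and 116 CPM in untreated and 228 and 238 CPM in GSK591 libraries (1.08 ± 0.11, adjusted p = 1.95e-10). ABCC3, an organic anion exporter, rose from 129 and 132 CPM to 203 and 227 CPM (0.72 ± 0.11). OSGIN1, a growth inhibitor induced by oxidative stress, fell from 61.6 and 56.5 CPM to 27.8 and 26.0 CPM (-1.14 ± 0.11, adjusted p = 5.35e-11), so members of this list moved in both directions. With GSK591 replicate 1, GSK591 replicate 2, untreated replicate 1 and untreated replicate 2 left out in turn, rises numbered 5, 3, 4 and 3 and falls 1, 1, 1 and 2.

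Genes of the integrated stress response split as well, with 5 rises and 6 falls among 28 tested (39.3% called, beside 17.2% of all genes). NUPR1 was at 4.89 and 5.74 CPM in untreated and 12.3 and 10.5 CPM in GSK591 libraries (1.10 ± 0.20), and CHAC1, which degrades glutathione, was at 6.90 and 8.56 CPM and 13.6 and 15.0 CPM (0.89 ± 0.17). ATF4, the central factor of this response, fell from 98.4 and 108 CPM to 68.4 and 68.4 CPM (-0.59 ± 0.10, adjusted p = 2.38e-05). PPP1R15A, the phosphatase subunit that ends it, fell from 53.6 and 54.6 CPM to 27.7 and 33.1 CPM (-0.83 ± 0.12). The falls of ATF4 and PPP1R15A were lost with totals as the only scaling. Falls numbered 3, 5, 3 and 4 with GSK591 replicate 1, GSK591 replicate 2, untreated replicate 1 and untreated replicate 2 left out in turn.

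JUN, an AP-1 subunit, was at 49.9 and 57.3 CPM in untreated and 17.5 and 24.8 CPM in GSK591 libraries (-1.35 ± 0.13, adjusted p = 3.77e-11). FOSL1 (-0.90) and KLF6 (-0.88) fell too, though not with totals as the only scaling, and the MAP kinase phosphatase DUSP4 rose from 177 and 201 CPM to 247 and 286 CPM (0.50 ± 0.10). In all, 4 immediate early and MAP kinase feedback genes rose and 5 fell of 26 (34.6% called, beside 17.2% of all genes). These counts were 2, 1, 1 and 1 for rises and 3, 5, 4 and 3 for falls with GSK591 replicate 1, GSK591 replicate 2, untreated replicate 1 and untreated replicate 2 left out in turn. DUSP1, the highest that did not pass, was at 205 and 224 CPM and 201 and 221 CPM. Of 29 cytoskeletal and SRF or YAP target genes, 9 fell and 2 rose (37.9% called, beside 17.2% of all genes). TGFB1, the growth factor, rose from 35.4 and 36.6 CPM to 62.0 and 62.9 CPM (0.80 ± 0.12, adjusted p = 1.64e-06). The list's median of -0.22 turned to 0.20 with totals as the only scaling, and with the same libraries left out in turn 6, 9, 5 and 6 genes fell and 1 rose each time.

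Inflammatory genes showed 3 rises and 4 falls among 23 tested (30.4% called, beside 17.2% of all genes tested). The neutrophil chemokine CXCL1 was at 4.89 and 6.15 CPM in untreated and 11.7 and 12.2 CPM in GSK591 libraries (1.11 ± 0.20), and the monocyte chemokine CCL2 at 6.01 and 6.55 CPM and 2.40 and 2.51 CPM (-1.35 ± 0.26). With GSK591 replicate 1, GSK591 replicate 2, untreated replicate 1 and untreated replicate 2 left out in turn, rises numbered 1, 2, 1 and 1 and falls 2, 3, 3 and 3. Among 23 glucocorticoid-induced genes 4 rose and 5 fell (39.1% called, beside 17.2% of all genes tested). No glucocorticoid was given to these groups. PDK4, a brake on pyruvate oxidation, was at 4.34 and 5.54 CPM and 14.5 and 15.5 CPM (1.60 ± 0.19, adjusted p = 7.24e-09), and KLF9 at 8.34 and 6.55 CPM and 14.7 and 16.7 CPM (1.08 ± 0.22). FKBP5 (-0.01) and TSC22D3 (0.11), which respond strongly to the receptor, did not pass. Falls in this list numbered 2, 1, 3 and 1 with the same libraries left out in turn.

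Besides the list of methyltransferases and their partners, pathway lists with shares called below the background of 17.2% were those for polymerase II pausing and elongation (4 falls of 36), sterol and fatty acid synthesis (1 rise and 3 falls of 32), nuclear genes of oxidative phosphorylation (3 falls of 31) and interferon-stimulated genes (3 rises and 3 falls of 38). With GSK591 replicate 1, GSK591 replicate 2, untreated replicate 1 and untreated replicate 2 left out in turn, falls numbered 1, 3, 2 and 3 in the polymerase list, 0, 1, 1 and 1 in the sterol list, 0 each time in the oxidative phosphorylation list and 0, 1, 1 and 0 in the interferon list, whose rises numbered 1, 2, 1 and 2. POLR2A, the largest subunit of polymerase II, was at 105 and 103 CPM in untreated and 71.9 and 76.9 CPM in GSK591 libraries (-0.49 ± 0.10, adjusted p = 0.000474), a call lost with totals as the only scaling. HEXIM1, an inhibitor of P-TEFb, was at 95.1 and 86.6 CPM and 89.4 and 92.1 CPM and did not pass. Of 13 protein-coding genes of the mitochondrial genome, 6 passed as falls and all 13 values were negative after TMM, with a median of -0.70. COX1, a subunit of complex IV, was at 80967 and 68803 CPM and 37486 and 43264 CPM (-0.89 ± 0.26), and lost its call without GSK591 replicate 1, without untreated replicate 1 and with totals as the only scaling. These falls numbered 1, 2, 1 and 4 with the same libraries left out. The share of all counts in mitochondrial genes moved with the groups, as given above, and its part in these values was not tested.

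Among long non-coding RNAs averaging 5 CPM or more, the largest rises were LINC02688, from 3.45 and 3.32 CPM to 14.2 and 10.9 CPM (1.89 ± 0.24), and AC027117.2, from 9.34 and 11.3 CPM to 35.5 and 34.2 CPM (1.75 ± 0.19), followed by MTUS1-DT (1.60), AC027373.1 (1.59) and C10orf91 (1.57). The largest falls were LOC100507156 (-2.16), IGFL2-AS1 (-1.72), SNHG1, MIR222HG (-1.64) and MIR22HG (-1.48). IGFL2-AS1 was at 32.3 and 31.0 CPM in untreated and 9.99 and 9.13 CPM in GSK591 libraries, with no overlap of the groups. Of pseudogenes the rule named AC015910.1 (1.69), ECEL1P3 (1.41), RPS2P32 (1.16), AL031282.1 (1.05) and NCF1B (1.04) as rises, and IGFL1P1 (-1.99), HNRNPA3P5 (-1.91), ANP32C (-1.77), EMC3-AS1 (-1.70) and HNRNPA3P6 (-1.53) as falls. Processed copies such as HNRNPA3P5 share reads with their parent gene, so these values are uncertain. The falls of HNRNPA3P5, ANP32C and HNRNPA3P6 were lost without GSK591 replicate 1, without untreated replicate 1 and with totals as the only scaling, and those of ANP32C and HNRNPA3P6 also without GSK591 replicate 2. The rise of AL031282.1 was lost without untreated replicate 1.

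The 4 day libraries were compared directly with those of the other GSK591 times, in contrasts that leave out the untreated libraries. The untreated libraries still entered the shared fit, with its filter, scaling and estimates of spread. Against 2 days, 778 genes passed (3.39%), of which 262 were higher (1.14%) and 516 lower (2.25%) at 4 days. Those falls took in 37 of 48 histone genes, 24 of 67 mitotic genes, 20 of 56 replication genes and 22 of 76 ribosomal protein genes. E2F1 was at 14.0 and 13.1 CPM at 2 days, which overlaps its untreated values, and at 4.51 and 3.31 CPM at 4 days (-1.78 ± 0.22, adjusted p = 1.31e-07). MCM2 was at 9.01 and 11.0 CPM and 2.21 and 3.41 CPM (-1.84 ± 0.24, adjusted p = 9.63e-07). The largest rise between these times was MUC5AC, at 8.60 and 7.47 CPM and 31.5 and 38.1 CPM (2.12 ± 0.51, adjusted p = 0.0312), followed by KIF12 (1.62), ZNF467 (1.49), FCGBP (1.41) and NPHS1 (1.34). The hnRNP genes gave 1 fall, and TAF15 was at 69.9 and 52.2 CPM at 2 days, beside 61.0 and 58.4 CPM at 4 days (-0.03 ± 0.26, adjusted p = 0.981). Of the p53 targets, 0 were higher and 1 lower at 4 days than at 2 days, and MDM2 was at 72.3 and 71.4 CPM at 2 days. The count was 212 without GSK591 4 day replicate 1, 356 without its replicate 2, and 291 and 270 without 2 day replicates 1 and 2. It was 73 with totals as the only scaling, where the median of all genes tested was 0.13.

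Between 4 and 7 days 1901 genes passed (8.29%), with 928 higher (4.05%) and 973 lower (4.25%) at 7 days. The cytoskeletal list gave 18 genes higher and 1 lower at 7 days, and 14 ribosomal protein genes and 7 snoRNA hosts were higher. Of the mitotic genes 2 were lower and 1 higher. FGA fell back from 20.7 and 20.9 CPM at 4 days to 5.11 and 8.04 CPM at 7 days (-1.68 ± 0.17, adjusted p = 1.93e-09). MUC5AC went from 31.5 and 38.1 CPM to 7.21 and 6.97 CPM (-2.29 ± 0.52, adjusted p = 0.0117). HES7 (-1.47), TTC4 (-1.43) and FCGBP (-1.41) were the next largest falls, and FGA, HES7 and FCGBP, which had risen at 4 days, were thus lower again. PSG4 (2.52), MARCHF4 (2.12), ANKRD1 (2.11), JUN (2.09) and DIO2 (1.95) were the largest rises.

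JUN was at 17.5 and 24.8 CPM at 4 days and 89.2 and 90.5 CPM at 7 days, below and above its untreated values of 49.9 and 57.3 CPM. MDM2 was at 112 and 147 CPM at 7 days, higher than at 4 days (0.66 ± 0.11, adjusted p = 4.03e-05). The count of calls between 4 and 7 days was 747 and 849 without 4 day replicates 1 and 2, and 1005 and 675 without 7 day replicates 1 and 2. It was 3663 with totals as the only scaling, of which 127 were higher, with a median of all genes of -0.44.

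Set against the same 2 untreated libraries, which these comparisons share, 1292 genes passed after 2 days of GSK591 (5.64%, with 3.19% higher and 2.45% lower). After 7 days 3026 passed (13.2%, with 6.68% higher and 6.52% lower), and after 4 days of MS023 3247 (14.2%, with 7.80% higher and 6.37% lower). Of 67 mitotic genes 7, 44 and 54 fell at 2, 4 and 7 days of GSK591 and 15 with MS023. Of 48 histone genes 7, 41 and 44 fell at these times, and with MS023 0 fell and 16 rose. Of 28 hnRNP genes 10, 20 and 16 fell, and 17 with MS023. Of 30 p53 targets 10, 11 and 14 rose, and 3 with MS023.

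**Figure D4:**
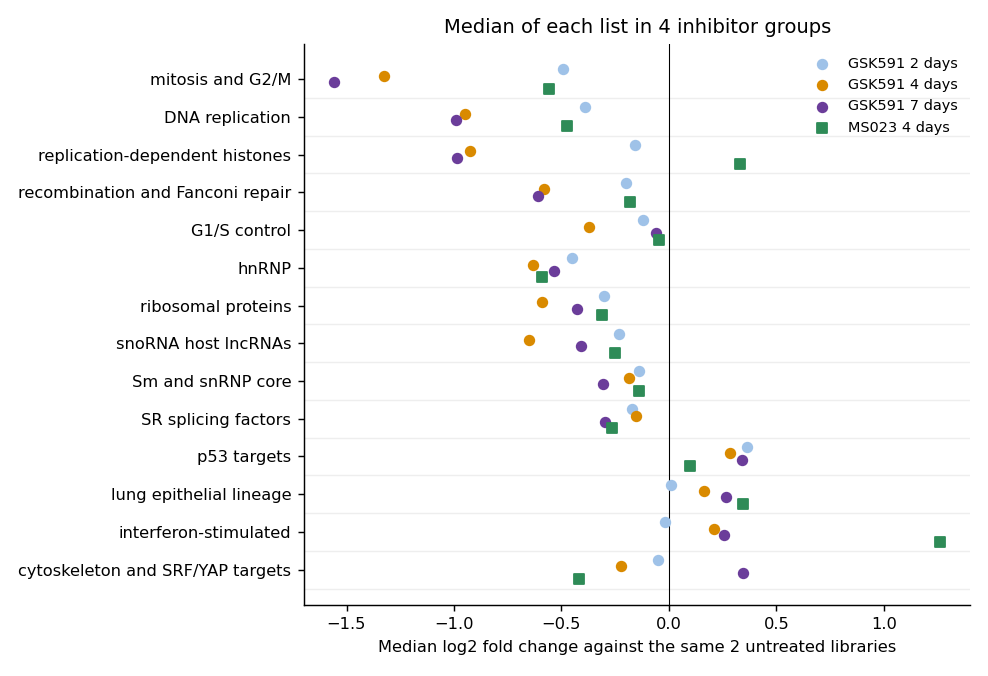
Points are the median log2 fold change of 14 gene lists against the same 2 untreated libraries, after GSK591 for 2, 4 or 7 days (circles) or MS023 for 4 days (squares). The mitotic list reads -0.49, -1.32 and -1.56 at the 3 GSK591 times, and the histone and interferon lists lie at 0.33 and 1.26 with MS023.

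GSK591 and MS023 were compared at the same dose of 1 µM and the same time of 4 days, again in a contrast without the untreated libraries. In this 1 pair of compounds 1382 genes passed (6.03%), with 576 higher (2.51%) and 806 lower (3.52%) after GSK591. Of 48 histone genes 46 were lower after GSK591. H2BC14 was at 3.07 and 2.81 CPM after GSK591 and 11.7 and 13.2 CPM after MS023 (-2.08 ± 0.21, adjusted p = 3.54e-10), with its untreated values of 8.23 and 8.77 CPM between them. Of 38 interferon-stimulated genes 23 were lower after GSK591 and none was higher. Against the untreated libraries, 28 of the 38 rose and 0 fell with MS023 (median 1.26). With GSK591, 3 rose and 3 fell (median 0.21), so the gap lay mostly in rises with MS023. HELZ2, a coactivator induced by interferon, was at 12.5 and 10.7 CPM after GSK591 and 74.9 and 75.1 CPM after MS023 (-2.69 ± 0.13, adjusted p = 1.61e-21). OASL (-3.31), MX1 (-3.16) and IFIT1 (-2.78) differed by more, at lower counts.

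Cell-cycle genes were lower after GSK591 than after MS023 in 26 of 67 mitotic genes, with 1 higher, and in 18 of 56 replication genes. AURKB was at 5.76 and 6.92 CPM after GSK591 and 23.4 and 21.6 CPM after MS023 (-1.83 ± 0.15, adjusted p = 3.77e-13). p53 targets were higher after GSK591 in 10 of 30 genes and lower in none. CDKN1A was at 23.1 and 24.9 CPM and 11.3 and 14.0 CPM (0.93 ± 0.14, adjusted p = 6.69e-06), and MDM2 at 79.7 and 84.8 CPM and 47.0 and 55.0 CPM (0.69 ± 0.11, adjusted p = 1.32e-05). Of the hnRNP genes 2 of 28 passed as lower and none as higher. HNRNPA2B1 was at 156 and 179 CPM and 151 and 176 CPM, a difference of 0.04 ± 0.27 that did not pass. FGA was lower after GSK591 (-0.78 ± 0.14, adjusted p = 7.59e-05), at 20.7 and 20.9 CPM against 33.5 and 38.1 CPM.

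DNAJB5, a heat shock cochaperone gene, was at 21.0 and 19.3 CPM after GSK591 and 4.97 and 4.34 CPM after MS023 (2.11 ± 0.16, adjusted p = 5.19e-14). GREM1, a BMP antagonist, was at 2.98 and 4.71 CPM and 26.4 and 27.0 CPM (-2.80 ± 0.20, adjusted p = 6.61e-15). Untreated values lay between those of the inhibitors in both genes, at 9.68 and 10.4 CPM and 11.8 and 11.4 CPM. KIAA1614 (1.58), the peptidase CPM (1.47), FBXW10 (1.45) and NKG7 (1.44) were the other largest excesses of GSK591. The count of calls between inhibitors was 594 and 641 without GSK591 replicates 1 and 2, and 740 and 599 without MS023 replicates 1 and 2. It was 1358 with totals as the only scaling, of which 80 were higher, with a median of all genes of -0.33.

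**Figure D5:**
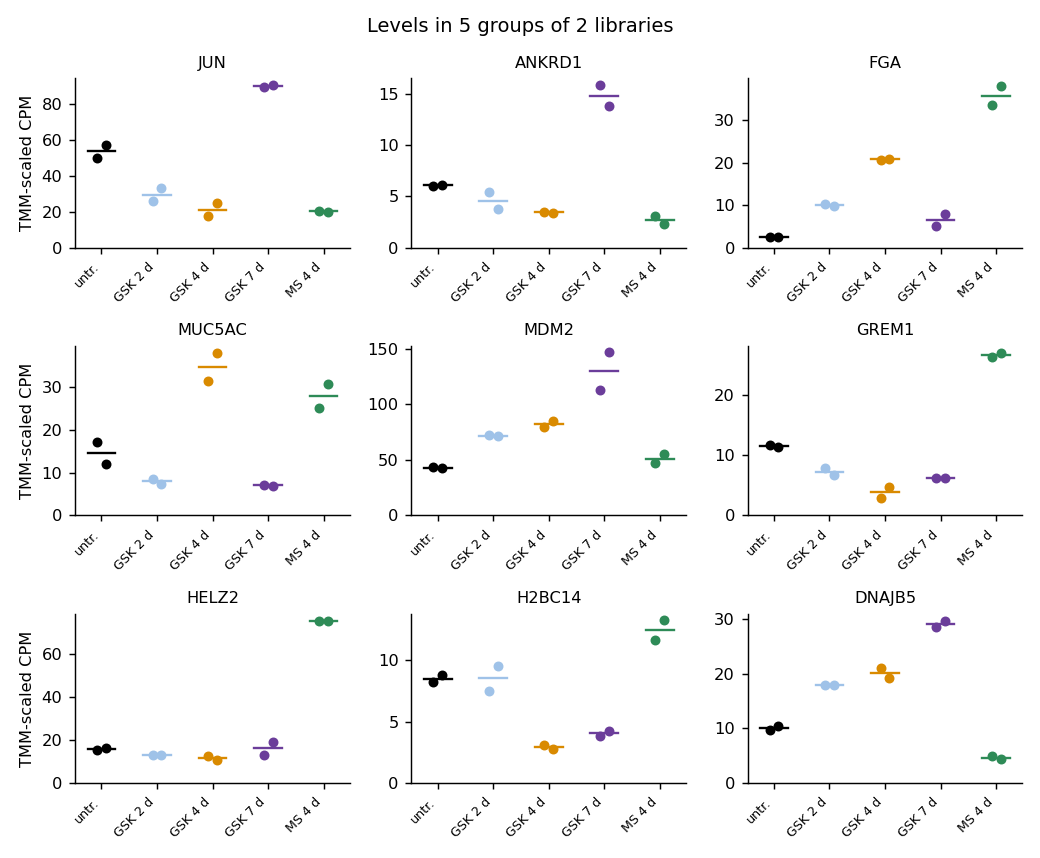
Each panel gives TMM-scaled CPM of single libraries (points) and group means (bars) for 1 gene in untreated cells, GSK591 at 2, 4 and 7 days, and MS023 at 4 days, on axes that start at 0. JUN and ANKRD1 lie lowest among GSK591 times at 4 days and highest at 7 days, FGA and MUC5AC peak at 4 days within GSK591, and GREM1, HELZ2, H2BC14 and DNAJB5 move in opposite directions with the inhibitors.

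The authors' deposited table for the same contrast lists 28873 genes, of which 16558 have an adjusted p and 4443 pass 0.05, 2131 higher and 2312 lower. No protein-coding gene of chromosome 1 that was tested here is in it, and 13386 of its genes with an adjusted p were tested here too. For 52.5% of these, the ratio of its mean level to the mean CPM of the 4 libraries lay more than 2-fold from the median ratio. Its gene levels thus differ from those of the count table. How its reads were counted is not given in the sources used here, and its part in gaps between the tables was not tested. Of the 13386 genes, 2782 passed here and 4006 in the authors' deposited table. Of these, 1656 passed in both, 1620 in the same direction and 36 in opposite directions. The 1656 are 59.5% of the 2782 and 41.3% of the 4006 in the authors' deposited table. For some of the lists, the authors' deposited table gives 58 falls of 60 mitotic genes (median -1.33), 45 of 51 replication genes (-1.24), 57 of 69 ribosomal protein genes, 18 of 24 hnRNP genes and 15 rises of 24 p53 targets. Other lists differed more. Sm and snRNP core genes have 12 falls and 0 rises of 24 there (median -0.38), against 7 and 1 of 27 in the counts (-0.18). NRF2 targets have 14 rises and 5 falls of 26 there, against 6 and 3 of 29 in the counts. The authors' deposited table gives -2.32 for AURKB, -2.18 for E2F1, 3.29 for FGA and 1.15 for MDM2. SNRPB is at -1.04 in the authors' deposited table (adjusted p = 2.25e-13), against -0.25 in the counts. CDT1 is at -1.76 (adjusted p = 7.58e-20) in the authors' deposited table, against -0.18 in the counts. DNAJB5 is at -0.67 (adjusted p = 0.0542) in the authors' deposited table, against 1.00 in the counts. Of the rises named above, FNDC11 is at 0.08 there without an adjusted p, against 2.39 in the counts. CDKN1C is at 0.13 there (adjusted p = 0.615), against 1.66 in the counts.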

How the data were processed

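PRO-seq counts of A549 cells were analysed as the authors deposited them, as whole-number counts per gene over exons for 58780 GENCODE 29 genes and 30 libraries. Alignment was to hg38 and counting with featureCounts 2.0.1, per the submitters' processing notes. The aligner and the use of strand are not given in the sources used here. Processed pseudogenes inside introns had a median of 13.4 counts per kb on the strand opposite to their host (611 genes) and 15.1 on the same strand (276 genes). Such copies can also take reads of their parent genes, so these values cannot settle the use of strand. Reads of overlapping and antisense genes were treated as not separable. The authors' deposited table for GSK591 at 4 days holds a mean signal per gene (baseMean), log2 fold changes, a standard error score, and p-values, per the file headers.

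Tests used the quasi-likelihood method of edgeR 4.0.16 (limma 3.58.1, R 4.3.3), with TMM scaling, robust fitting and the filterByExpr filter (minimum count 10, minimum total 15, leaving 22919 genes). All 15 groups of 2 libraries entered 1 fit without covariates, with 15 residual degrees of freedom and a common biological coefficient of variation of 10.6%. p-values were adjusted by Benjamini-Hochberg over all genes tested, with a threshold of 0.05. Standard errors come from each log2 fold change and its F value, and 95% intervals follow from them. Depth was 10031609 to 13069598 counts per library. The procedure was tested on simulated data.

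The members and gene lists were chosen with earlier results of these data known. Genes named are PRMT5, PRMT1, SNRPB, WDR77, CLNS1A, MDM2, MDM4 and CDKN1A; the 15 largest rises and falls of protein-coding genes and 5 each of lncRNAs and pseudogenes with a mean of at least 5 CPM and groups that do not overlap; 5 each in the other comparisons; and up to 4 called members each way, with the highest that did not pass, of each list. Some genes that these rules name are not reported here. Further members are named with their fold change alone. Promoters (RefSeq, GRCh38.p14, first listed start) matched 11888 of 14966 protein-coding genes tested. Alternatives were DESeq2 size factors, totals as the only scaling, no filter, DESeq2 1.42.0, fitting only the groups compared, a block for the replicate number, a fit without mitochondrial-genome and ribosomal RNA genes, and leaving out each library.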

Additional observations from a re-analysis of the deposited data

Results flagged for a closer look

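Some genes moved against untreated cells in one direction at 4 days of GSK591 and in the other direction in a second group. Their difference between the inhibitor groups also passed the edgeR quasi-likelihood test. The genes were chosen with the same inhibitor libraries, and all 25 genes opposite at 7 days and all 32 opposite with MS023 passed it. Passing was thus close to fixed by the choice and is no separate support. Between the GSK591 times, ANKRD1, a target of YAP and SRF, stood at -0.82 at 4 days and 1.29 at 7 days, with a difference of 2.11 (adjusted p = 1.11e-07). JUN stood at -1.35 and 0.74, with a difference of 2.09 (adjusted p = 4.61e-17). Both were lower than untreated at 4 days and higher at 7 days.

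Between the inhibitors at 4 days, the difference is GSK591 minus MS023. Interferon-stimulated genes gave -3.03 for CMPK2 (-1.36 with GSK591 and 1.68 with MS023), -2.69 for HELZ2 (-0.46 and 2.23), -1.81 for OAS3 (-0.56 and 1.25) and -1.16 for IRF7 (-0.43 and 0.74). The 4 day falls of ANKRD1, CMPK2, HELZ2, OAS3 and IRF7 against untreated cells were each lost without at least 1 library and with DESeq2. The histone gene H2BC14 gave -2.08 (-1.53 and 0.55), GREM1 gave -2.80 (-1.59 and 1.20), and DNAJB5 gave 2.11 (1.00 and -1.11). These values were picked from many genes, and no explanation was tested.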

How the results depend on the processing

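With 2 libraries a group, the count of calls depended on each library. It ran from 2140 to 2375 for 4 days against untreated, 212 to 356 against 2 days, 675 to 1005 for 7 against 4 days, and 594 to 740 against MS023 when single libraries were left out. DESeq2 called 2483, 430, 972 and 738 genes in these comparisons, and a fit of the compared groups alone called 5341, 1532, 2925 and 2402. With totals as the only scaling the counts were 4631, 73, 3663 and 1358, and 93.5% of the calls against untreated were rises, against 51.8% with TMM. Fits with a library left out rest on fewer libraries, and for the other settings the cause was not tested. No gene called with TMM was called in the opposite direction under any of these settings. Under totals, which shift all genes upward, the log2 fold changes of 152 of the 1898 falls turned positive. Among the genes of the naming rules these were GEMIN4 (0.00021), ANGPTL4 (0.0022), SNRPG (0.0082), FADS1 (0.013), TIPARP (0.033), NORAD (0.038), MXD3 (0.052), DDB2 (0.074) and PCF11 (0.11).

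Of 209 named genes that passed, 124 did so without each of the 4 libraries in turn and 102 under every alternative run. The replicate numbers were not used as pairs in the main fit. Deviations of same-numbered untreated and GSK591 libraries correlated with r = -0.022. This value cannot exclude that same-numbered libraries were handled together. With the replicate number as a block the counts were 4018, 826, 1971 and 1449. DESeq2 size factors (3999 calls against untreated), no filter (3499) and leaving out mitochondrial-genome and ribosomal RNA genes (3974) stayed within 1.5 times of 3941. Genes with few counts, such as FGB and FGG, have wide errors, and exon counts leave out polymerases in introns.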

Other observations

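Biology outside the comparisons of the report lay in gene classes and gene features. Among 54 snoRNA genes tested, 8 fell and none rose, with a median log2 fold change of -0.72. These snoRNA genes were not matched to their host genes. The share that fell was above the 8.28% of all genes tested. Of 14978 protein-coding genes 10.7% rose and 10.1% fell. Of 1698 lincRNA genes 129 rose and 93 fell, with a median of 0.11. Both lincRNA shares were below those of all genes tested, of which 8.91% rose and 8.28% fell. Processed pseudogenes had a median of -0.29 over 1591 genes.

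Across 14965 protein-coding genes, Spearman's rho of the log2 fold change was -0.011 with gene length, -0.056 with exonic length, -0.030 with the number of exon blocks and -0.124 with mean CPM. Genes share libraries and are not independent replicates, so these are descriptions. In the eighth of genes with the longest gene bodies 5.45% fell and 9.25% rose, and in the eighth with the shortest 14.2% fell and 13.0% rose. Genes with short bodies were thus called more often both ways, and the medians were 0.026 and 0.022. In the eighth with the highest mean CPM 24.7% fell and 12.1% rose.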
